A study of Mus musculus with 20 samples.

Results

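Integrin and laminin genes were followed in cardiac endothelial cells (ECs), fibroblasts (FBs) and cardiomyocytes (CMs) of *Gadlor*-KO and WT mice. Members were chosen by their symbols alone, as genes named *Itga*, *Itgb*, *Lama*, *Lamb* or *Lamc* followed by a number or letter code. The rule found 36 of 13929 genes in the EC table, 36 of 13563 in the FB table and 32 of 13038 in the CM table. Of the 39 genes found in any table, 30 were present in all 3, and 35 encode true subunits (10 laminin chains and 25 integrin chains). The other 4 share only the name pattern: *Itgb1bp1* and *Itgb1bp2* encode proteins that bind the cytoplasmic tail of integrin beta1 (that of *Itgb1bp2* is melusin, of striated muscle), *Itgb3bp* encodes a nuclear protein, and *Itgbl1* a secreted protein related to beta chains. *Lama1*, *Itgb6* and *Itgb2l* fit the pattern in the annotation but were not analysed here.

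Laminins are trimers of an alpha, a beta and a gamma chain that polymerize into basement membranes. Cells hold on to these sheets, and to collagens and fibronectin, through integrins, each a pair of an alpha and a beta chain that links the matrix to talin, kindlin and the actin cytoskeleton. In the heart, every CM is wrapped in a laminin sheet held by integrin alpha7 beta1 and the dystroglycan complex, and capillary ECs rest on laminins with alpha4 and alpha5 chains. Leukocytes carry their own set, in which beta2 pairs with alphaL, alphaM, alphaX or alphaD and alpha4 binds VCAM-1.

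The 20 bulk RNA-seq samples comprised 4 *Gadlor*-KO and 4 WT samples of ECs, 3 and 3 of FBs, and 3 and 3 of CMs. *Gadlor*-KO mice lacked the lncRNAs *Gadlor1* and *Gadlor2* in every cell, through a homozygous deletion made with CRISPR-Cas9 in 1 embryonic stem cell line, and WT mice were littermates. All groups, WT included, were young adult mice of either sex taken 2 weeks after transverse aortic constriction (TAC), a band on the aortic arch that imposes pressure overload, so no group lacked overload. ECs were captured with CD146 beads, FBs were taken from the cells left over after that step, and CMs came from perfused hearts by sedimentation. EC and FB samples are named by genotype and number as in their labels (KO-105), and CM samples by number alone. Levels of the deleted RNAs were not analysed here, so the genotype labels were not checked against the deletion. Each value is the log2 CPM (a read count scaled to the library's total, on a log2 scale) of a gene's most abundant transcript. The labels do not say which samples came from separate animals, so a p-value here reflects no more than how far the samples of a group differ.

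Several libraries stood apart from their labels. In CMs, the 15 cardiomyocyte markers averaged 5.46, 5.33 and 8.34 log2 CPM in *Gadlor*-KO samples 1, 2 and 3, against 10.68, 10.50 and 10.50 in WT samples 1, 2 and 6. Fibroblast markers summed to 2315 to 4076 CPM in *Gadlor*-KO CMs against 149 to 229 CPM in WT CMs, endothelial markers to 1423 to 3465 against 377 to 610 CPM, and macrophage markers to 505 to 1247 against 272 to 576 CPM. *Gadlor*-KO CM sample 1 also held 15624 CPM of erythroid markers and 1197 CPM of epicardial markers, the highest of the 6 CM samples. In FBs, endothelial markers summed to 1630 to 2937 CPM in *Gadlor*-KO samples, against 1030, 188 and 351 CPM in samples WT-260, WT-277 and WT-283, and sample WT-260 alone carried 213.9 CPM of platelet markers, against 18.2 to 36.5 CPM in the other 5 FB samples. In ECs, samples KO-131 and KO-133 had macrophage markers at 290 and 324 CPM, against 559 and 708 CPM in samples KO-105 and KO-108 and 768 to 844 CPM in WT samples. Y-linked genes, which only males carry, averaged -5.02 and -4.03 log2 CPM in samples KO-131 and KO-133. They averaged 3.45 and 3.41 in samples KO-105 and KO-108, and 3.46, 3.56, -4.84 and -4.11 in samples WT-31, WT-32, WT-34 and WT-35. Transcripts encoded by mitochondrial DNA took 65.1 to 75.6% of *Gadlor*-KO and 26.7 to 46.8% of WT CM libraries, and 46.3 to 60.9% of *Gadlor*-KO FB libraries against 73.6, 3.81 and 5.69% in samples WT-260, WT-277 and WT-283. Their share of EC libraries was 8.03 to 20.4% in *Gadlor*-KO and 5.25 to 8.59% in WT. Y-linked genes of FBs averaged 3.06, -5.19 and -4.84 log2 CPM in samples KO-240, KO-241 and KO-242. They averaged 2.83, 3.19 and -2.33 in samples WT-260, WT-277 and WT-283. In CMs they averaged 2.64, -3.10 and 2.24 in *Gadlor*-KO samples 1, 2 and 3. WT samples 1, 2 and 6 had -3.97, 3.35 and -0.01. The part of these differences in the results below was not tested unless a value is given.

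Set per kilobase of transcript, which allows genes to be compared, the gamma chain *Lamc1* had the highest mean of the laminin chains in ECs and FBs. *Lamc1*, the gamma chain of most laminins, had 5.87 log2 CPM per kb in *Gadlor*-KO ECs and 5.78 in WT ECs, and 6.21 in *Gadlor*-KO FBs and 6.83 in WT FBs. *Lamb2* led the beta chains of ECs with 5.46 log2 CPM per kb in *Gadlor*-KO and 5.69 in WT. In WT ECs it lay within the SD of *Lamc1*, and in sample WT-34 it was the higher, with 5.70 against 5.39. In FBs it had 5.15 in *Gadlor*-KO and 5.46 in WT, where *Lamb1*, with 4.54 in *Gadlor*-KO and 5.34 in WT, lay within the SD of it in WT FBs. Among alpha chains, *Lama4* led in ECs with 5.17 log2 CPM per kb in both genotypes, followed by *Lama5* with 3.79 in *Gadlor*-KO and 4.20 in WT ECs. In FBs, *Lama2* (4.06 in *Gadlor*-KO, 4.78 in WT) and *Lama4* (4.07 in *Gadlor*-KO, 4.56 in WT) lay within their SDs of each other. WT CMs had *Lamb2* (4.93 log2 CPM per kb) as their most abundant laminin chain and *Lama5* (2.97) as their most abundant alpha chain, whereas in *Gadlor*-KO CMs *Lamc1* (4.81) and *Lama4* (3.87) held these places, although *Lamb2* was above *Lamc1* in *Gadlor*-KO sample 1. The tables were normalized separately, so levels in different cell types are descriptions only.

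**Figure D1:**
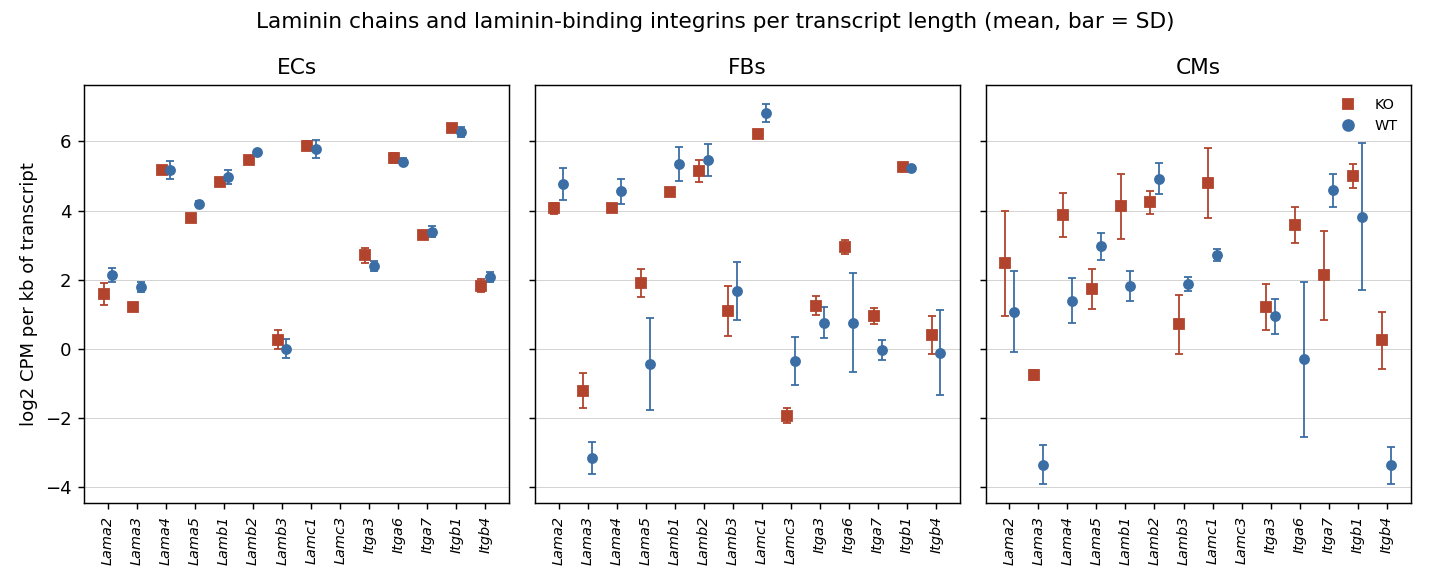
Levels of 9 laminin chains and 5 integrin chains of laminin receptors, as log2 CPM per kilobase of transcript, in *Gadlor*-KO (squares) and WT (circles) ECs, FBs and CMs; points are means and bars SDs over samples (n = 4 per genotype in ECs and 3 in FBs and CMs). *Lama4* leads the alpha chains of ECs at 5.17 in both genotypes, while *Lamc1* stands at 4.81 in *Gadlor*-KO and 2.71 in WT CMs.

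The beta1 chain, the common partner of laminin- and collagen-binding alpha chains, was the most abundant integrin chain per length in ECs, with 6.38 log2 CPM per kb in *Gadlor*-KO and 6.28 in WT. Its laminin-binding partners in ECs were led by *Itga6* with 5.52 log2 CPM per kb in *Gadlor*-KO and 5.42 in WT. In WT CM samples 1, 2 and 6, *Itga7*, the muscle laminin receptor, had 4.28, 4.33 and 5.14 log2 CPM per kb and *Itgb1* 5.02, 5.08 and 1.37, so that *Itgb1* was the higher in samples 1 and 2 and *Itga7* in sample 6.

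The first comparison asked what the *Gadlor* deletion changed in ECs under pressure overload. The laminin alpha chains *Lama3*, *Lama5* and *Lama2* and the beta chain *Lamb2* lay 1.17 to 1.49-fold lower in *Gadlor*-KO ECs, and the leukocyte chain *Itgax* fell by 2.38-fold. Among the 36 members, 1 was lower in *Gadlor*-KO ECs and 0 were higher at an adjusted p (limma, Benjamini-Hochberg over all genes) under 0.05 and a fold change above 1.5, beside 5.31% lower and 2.08% higher calls among all genes of the table. Where p was not adjusted but the fold threshold kept, 2 members were higher, *Itgae* and *Itgb3bp* (each with a log2 fold change of 0.62, called without KO-108 and without KO-131 in this order), and 1 lower, beside 2.85% and 6.22% of all genes. The median log2 fold change was -0.11 over the members and 0.03 over all genes. Laminin chains made up 4 further genes that passed the adjusted p but not the fold threshold, each lower in *Gadlor*-KO ECs. Leaving mitochondrially encoded genes out of the totals gave log2 fold changes of -0.53, -0.37, -0.50 and -0.19 for *Lama3*, *Lama5*, *Lama2* and *Lamb2*. The adjusted p of these 4 chains were then 0.00109, 0.00382, 0.0411 and 0.0401. Without a fold threshold the members had 5 lower and 0 higher calls, beside 11.3% lower and 10% higher calls among all genes. In 0 members every *Gadlor*-KO value lay above and in 4 below every WT value, beside 13.6% and 12.6% of all genes.

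*Lama3*, an alpha chain best known from epithelial basement membranes, stood just short of the fold threshold. It had 4.55, 4.51, 4.69 and 4.65 log2 CPM in samples KO-105, KO-108, KO-131 and KO-133, against 5.10, 5.06, 5.15 and 5.38 in samples WT-31, WT-32, WT-34 and WT-35. The genotypes did not overlap, and the highest *Gadlor*-KO value lay below the lowest WT value by more than either SD. The log2 fold change was -0.57 ± 0.08 (SE), 1.49-fold lower, with an adjusted p of 0.000895, and it lay between -0.61 and -0.51 as each sample was left out, past the fold threshold without KO-131, KO-133, WT-31 or WT-32.

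*Lama5*, an alpha chain of mature capillary basement membranes, followed it. Its level was 7.18, 7.23, 7.41 and 7.39 log2 CPM in samples KO-105, KO-108, KO-131 and KO-133, against 7.72, 7.69, 7.63 and 7.81 in samples WT-31, WT-32, WT-34 and WT-35. Again all 4 *Gadlor*-KO samples lay below all 4 WT samples, with a log2 fold change of -0.41 ± 0.07 (adjusted p = 0.0039). *Lamb2*, a beta chain of vascular and muscle laminins, had 7.86, 7.98, 7.98 and 7.98 log2 CPM in *Gadlor*-KO and 8.20, 8.21, 8.19 and 8.11 in WT ECs. Its groups stood apart too, although the log2 fold change was only -0.23 ± 0.06 (adjusted p = 0.0234).

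*Lama2*, the alpha chain of muscle laminin that fibroblasts also make, had 4.89, 4.89, 4.44 and 5.19 log2 CPM in *Gadlor*-KO ECs and 5.43, 5.44, 5.12 and 5.61 in WT ECs. Sample KO-133 reached into the WT range, and the log2 fold change was -0.55 ± 0.16 (adjusted p = 0.0377), past the fold threshold at -0.66 without KO-133 and -0.64 without WT-34. Fibroblast markers summed to 591 to 1374 CPM in *Gadlor*-KO and 876 to 1691 CPM in WT ECs, with 1 of 15 called lower and 0 higher. The part of these cells in the *Lama2* difference was not tested.

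The other abundant EC laminin chains did not pass the test. *Lama4* averaged 7.76 ± 0.10 log2 CPM in *Gadlor*-KO and 7.76 ± 0.26 in WT ECs (SD, n = 4 each), and *Lamc1* 8.80 ± 0.13 in *Gadlor*-KO and 8.71 ± 0.26 in WT. *Lamb1*, the beta chain that pairs with both, averaged 7.35 ± 0.10 in *Gadlor*-KO and 7.51 ± 0.20 in WT. Sample WT-34 was the lowest WT sample for all 3 chains, in the order named, at 7.40, 8.32 and 7.24 log2 CPM.

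The only call past both thresholds was *Itgax* (integrin alphaX or CD11c, chromosome 7, 128129547 to 128150657, mm10), a receptor of dendritic cells and macrophages. Its level was -0.66, -0.34, -1.97 and -1.64 log2 CPM in samples KO-105, KO-108, KO-131 and KO-133, against 0.09, -0.08, 0.34 and 0.05 in samples WT-31, WT-32, WT-34 and WT-35. All *Gadlor*-KO values lay below the WT values, and samples KO-131 and KO-133 lay lowest (log2 fold change -1.25 ± 0.36, adjusted p = 0.0332). Without sample KO-131, without sample KO-133 or without any WT sample the call was lost, and it was also lost with samples KO-105 and KO-108 as the only *Gadlor*-KO samples, an alternative chosen after seeing the data that called 1 member higher (*Itgb3bp*, beside 1.73% of all genes) and 1 lower (*Lama3*, beside 4.74%). *Itgam* (alphaM) and *Itgb2* (beta2), its relatives on the same cells, were lowest in the same samples, at 0.75 and 1.19 and at 0.30 and 0.84 log2 CPM, but their genotypes overlapped and neither passed the test. Of 15 macrophage markers, 1 (*Cx3cr1*) was called lower and 0 higher, all 15 had a negative log2 fold change with a median of -0.89, and 5 lay past 0.05 without adjustment and past the fold threshold. Of the 7 other leukocyte markers measured, 0 were called, 4 did likewise on the lower side, and the median was -0.98. The sums of these 7 were 11.3 to 18.6 CPM in *Gadlor*-KO and 18.4 to 30.6 CPM in WT ECs. All 5 erythroid markers were called lower, with sums of 246 to 284 CPM in *Gadlor*-KO and 417 to 693 CPM in WT ECs. The part of these markers in the *Itgax* difference was not tested. Samples KO-131 and KO-133 were also the *Gadlor*-KO EC samples with low Y-linked RNA, and the part of sex in this split was not tested. In bulk samples, fewer leukocytes and less *Itgax* RNA per leukocyte cannot be told apart.

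**Figure D2:**
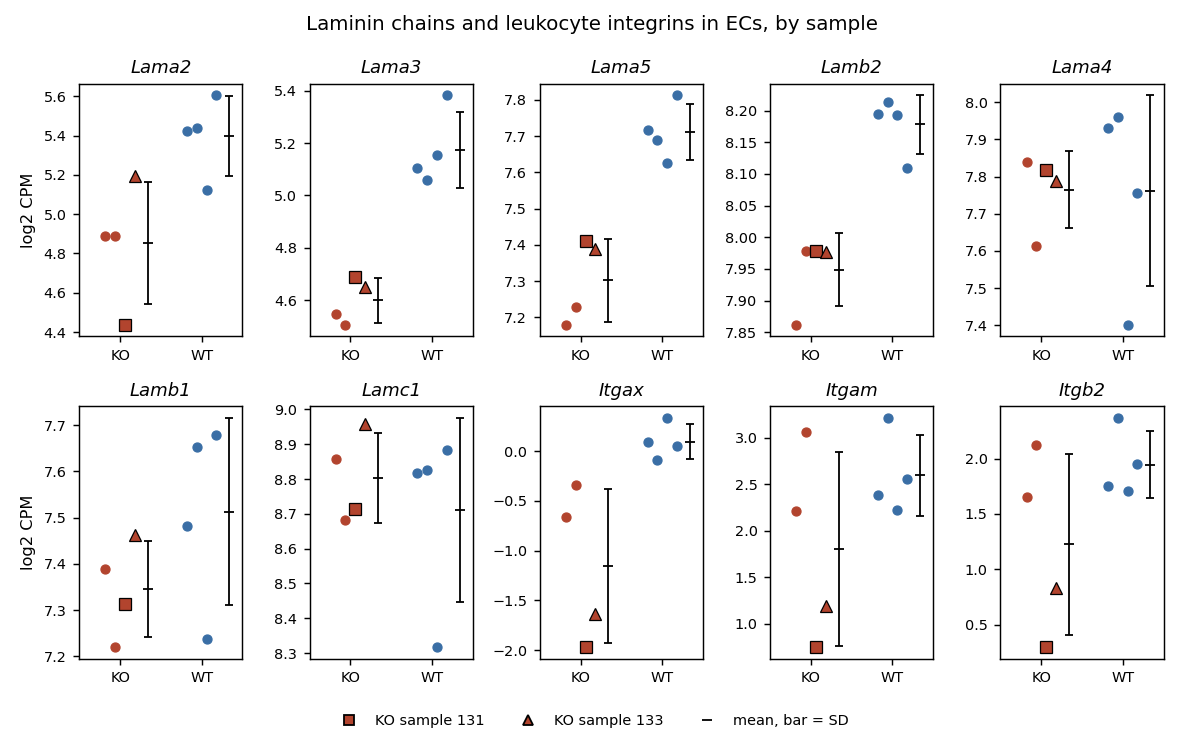
Log2 CPM of 7 laminin chains and 3 leukocyte integrin chains in each EC sample, *Gadlor*-KO left and WT right in every panel; bars give the mean and SD (n = 4 each) and each panel has its own scale, which does not start at 0. *Lama3*, *Lama5* and *Lamb2* separate the genotypes, as do 12.6% of all genes with *Gadlor*-KO below WT. *Itgax*, *Itgam* and *Itgb2* are lowest in samples KO-131 (square) and KO-133 (triangle).

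None of the remaining integrin chains of ECs passed the test. *Itgb1* averaged 8.32 ± 0.05 log2 CPM in *Gadlor*-KO and 8.22 ± 0.15 in WT, and *Itga6*, a laminin receptor of ECs, 7.58 ± 0.15 in *Gadlor*-KO and 7.47 ± 0.10 in WT. *Itga5*, the fibronectin receptor chain, averaged 7.55 ± 0.06 in *Gadlor*-KO and 7.40 ± 0.22 in WT, and *Itga1*, a collagen receptor chain, 6.76 ± 0.13 in *Gadlor*-KO and 6.96 ± 0.11 in WT. The genotypes of all 4 overlapped. *Itga9*, *Itga7* and *Itga3* averaged 5.77, 5.29 and 4.99 in *Gadlor*-KO ECs and 5.65, 5.40 and 4.68 in WT ECs. Among chains of receptors for RGD motifs, *Itgav* averaged 3.70 in both genotypes, *Itgb3* 3.56 in *Gadlor*-KO and 3.48 in WT, and *Itga8* 3.57 in *Gadlor*-KO and 3.85 in WT. *Itgb5* averaged 4.72 in *Gadlor*-KO and 5.10 in WT (adjusted p = 0.0755), *Itgb4* 4.42 in *Gadlor*-KO and 4.66 in WT, *Itga10* 3.04 in *Gadlor*-KO and 3.37 in WT, and *Itgb1bp1* 3.74 in *Gadlor*-KO and 3.85 in WT. The other 15 members averaged under 10 CPM in both genotypes, and of these only *Itgax* was called.

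In FBs, the cells that lay down much of the interstitial matrix, 0 of 36 members were called higher and 0 lower (limma), beside 0.00737% and 0% of all genes. At an unadjusted p under 0.05 with a fold above 1.5, 5 members were higher and 7 lower, beside 7.03% and 4.38% of all genes. In 5 members every *Gadlor*-KO value lay above and in 9 below every WT value, beside 12.2% and 9.09% of all genes. The median log2 fold change was -0.38 over the members and 0.01 over all genes, and leaving mitochondrially encoded genes out of the totals moved the median of all genes to 0.15 without adding a call. A single library decided the count: without sample WT-260, the WT sample with the most platelet and endothelial markers, 4 members were called higher (6.1% of all genes) and 5 lower (3.3% of all genes). Its removal leaves 2 WT samples.

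The largest positive log2 fold changes in FBs were those of *Lama5*, *Itga6* and *Lama3*, none of them called. *Lama5* had 5.87, 5.26 and 5.10 log2 CPM in samples KO-240, KO-241 and KO-242, against 4.35, 3.16 and 1.68 in samples WT-260, WT-277 and WT-283. *Itga6* had 5.11, 5.12 and 4.77 in *Gadlor*-KO and 4.47, 1.90 and 2.05 in WT. For both genes the genotypes did not overlap, and sample WT-260 lay nearest to the *Gadlor*-KO samples (log2 fold change 2.35 ± 0.64, adjusted p = 0.193, and 2.19 ± 0.67, adjusted p = 0.219). Without that sample the log2 fold changes were 2.99 and 3.02, with adjusted p of 0.00951 and 0.00106.

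*Lama3* followed the same order, with 2.42, 2.53 and 1.60 log2 CPM in *Gadlor*-KO FBs and 0.76, 0.00 and -0.05 in WT FBs (adjusted p = 0.141). *Itga7* had 2.93, 3.20 and 2.72 in *Gadlor*-KO and 2.31, 1.85 and 1.77 in WT (adjusted p = 0.158). *Itga1* had 5.41, 4.80 and 4.62 in *Gadlor*-KO and 3.94, 3.69 and 4.10 in WT (adjusted p = 0.158). None of the 3 genes overlapped between genotypes, and *Lama3* and *Itga7* were called without sample WT-260. Of the 15 endothelial markers, 0 were called and 14 had a higher value at an unadjusted p under 0.05 with a fold above 1.5, with a median log2 fold change of 3.76. The part of these markers in the 5 values above was not tested.

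Chains that lay lower in *Gadlor*-KO FBs included those of the fibroblast laminins. *Lamb1* had 7.12, 7.08 and 7.02 log2 CPM in samples KO-240, KO-241 and KO-242, against 7.45, 7.74 and 8.42 in samples WT-260, WT-277 and WT-283. *Lamc1* had 9.19, 9.16 and 9.07 in *Gadlor*-KO and 9.47, 9.82 and 9.98 in WT. *Lama2* had 7.50, 7.21 and 7.26 in *Gadlor*-KO and 7.51, 8.25 and 8.37 in WT. For all 3 chains the *Gadlor*-KO samples lay below the WT samples, for *Lama2* by 0.01 from sample WT-260. Log2 fold changes were -0.80 ± 0.27, -0.62 ± 0.23 and -0.72 ± 0.27 (adjusted p = 0.241, 0.277 and 0.273), and without sample WT-260 they were -1.0, -0.76 and -0.98 (adjusted p = 0.04, 0.0494 and 0.0184). *Lamc3*, a gamma chain measured at under 10 CPM, had 0.62, 0.41 and 0.82 in *Gadlor*-KO and 1.80, 3.01 and 1.78 in WT (log2 fold change -1.58 ± 0.37, adjusted p = 0.163). Fibroblast markers summed to 12273 to 14536 CPM in *Gadlor*-KO and 14557 to 31552 CPM in WT FBs, and of 15 such markers 0 were called and 14 had a negative log2 fold change, with a median of -0.73. The 8 epicardial markers measured summed to 23.1 to 42.1 CPM in *Gadlor*-KO and 72.9 to 319 CPM in WT FBs, with 0 calls and a median of -3.62, and in 6 of them every *Gadlor*-KO value lay below every WT value. The part of these markers in the lower chains was not tested.

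Leukocyte and RGD-binding chains of FBs did not pass the test either. *Itgam* had 4.23, 4.55 and 4.65 log2 CPM in *Gadlor*-KO and 4.92, 4.88 and 5.50 in WT FBs (adjusted p = 0.249), and *Itgb2* 3.52, 4.06 and 3.84 in *Gadlor*-KO and 5.02, 4.06 and 5.04 in WT (adjusted p = 0.237). *Itga8*, a chain that binds nephronectin, had 2.17, 2.17 and 2.38 in *Gadlor*-KO and 2.89, 2.46 and 3.13 in WT (adjusted p = 0.272). *Itgam* and *Itga8* did not overlap between genotypes, and *Itgb2* met at sample WT-277. Macrophage markers summed to 1090 to 1468 CPM in *Gadlor*-KO and 1223 to 2170 CPM in WT FBs.

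The platelet receptor alphaIIb beta3 marked sample WT-260. *Itga2b*, which encodes alphaIIb, had 1.51, 1.09 and 1.05 log2 CPM in *Gadlor*-KO samples and 6.20, 1.67 and 1.37 in samples WT-260, WT-277 and WT-283, and *Itgb3* had 2.79, 3.14 and 2.88 in *Gadlor*-KO and 5.20, 3.39 and 3.30 in WT. *Itgal*, the beta2 partner on lymphocytes, was also highest there at 4.27, against 1.28 to 2.62 in the other 5 samples.

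**Figure D3:**
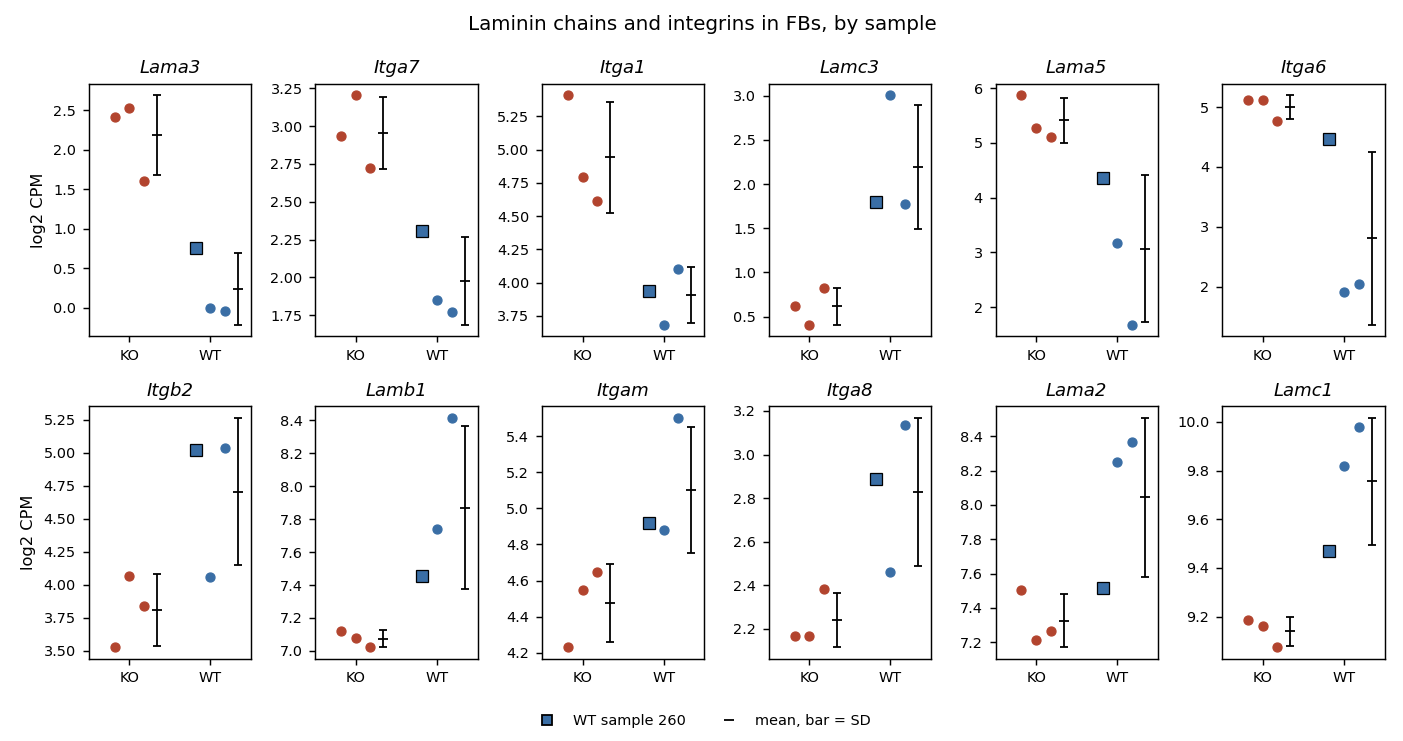
Log2 CPM of 12 laminin and integrin chains in each FB sample, *Gadlor*-KO left and WT right in every panel; bars give the mean and SD (n = 3 each), and each panel has its own scale, which does not start at 0. Sample WT-260 (square) is the WT sample nearest to the *Gadlor*-KO samples for *Lama5*, *Itga6*, *Lamb1*, *Lama2* and *Lamc1*.

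None of the other FB chains from 10 CPM passed the test with all 6 samples. *Itga5* averaged 7.35 ± 0.14 log2 CPM in *Gadlor*-KO and 7.21 ± 0.12 in WT, and *Itgb1* 7.20 ± 0.11 in *Gadlor*-KO and 7.17 ± 0.07 in WT (n = 3 each). *Lamb2* averaged 7.64 in *Gadlor*-KO and 7.96 in WT, *Lama4* 6.66 in *Gadlor*-KO and 7.15 in WT, and *Lamb3* 3.38 in *Gadlor*-KO and 3.95 in WT. The alphav partner *Itgb5*, which serves attachment to vitronectin, averaged 7.0 in *Gadlor*-KO and 7.47 in WT, and *Itgav* itself 4.41 in *Gadlor*-KO and 5.01 in WT, and *Itgav* was called without sample WT-260 (log2 fold change -0.95, adjusted p = 0.0239). *Itga11*, the collagen receptor chain of fibroblasts, averaged 5.04 in *Gadlor*-KO and 5.29 in WT, and *Itgbl1* 5.76 in *Gadlor*-KO and 5.96 in WT. *Itga9*, *Itga3* and *Itga4* averaged 5.47, 3.53 and 3.13 in *Gadlor*-KO FBs and 5.85, 3.04 and 3.51 in WT FBs. The 14 members under 10 CPM in both genotypes had 0 calls.

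In CMs, the comparison asked what the deletion changed in the muscle cells. Leukocyte chains (*Itgb2*, *Itgam*, *Itga4*) and the laminin chains *Lama4*, *Lamb1* and *Lamc1* rose in *Gadlor*-KO samples, while the muscle receptor chain *Itga7* and melusin fell, together with all 15 cardiomyocyte markers counted. Of 32 members, 14 were called higher and 6 lower in *Gadlor*-KO CMs, beside 21.3% higher and 19.6% lower calls among all genes. Without adjustment 17 were higher and 7 lower (25.9% and 24.2% of all genes). The genotypes did not overlap in any of the 20 called members, and in total 16 members lay above and 9 below, beside 31.1% and 28.4% of all genes. The median log2 fold change was 1.75 over the members, against 0.15 over all genes. Leaving the mitochondrially encoded genes out of the library totals moved the median of all genes to 0.89, and then 17 members were called higher and 2 lower. Centring each sample on its median brought it to 0.00, with 15 higher and 4 lower. With sample 3 as the only *Gadlor*-KO sample, chosen after seeing the marker levels, limma called 0 members and 0% of all genes. At an unadjusted p under 0.05, 13 members were then higher and 3 lower, beside 14.5% and 9.91% of all genes.

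The laminin chains *Lamc1*, *Lamb1*, *Lama4* and *Lama3* lay higher in *Gadlor*-KO CMs. *Lamc1* had 6.59, 8.47 and 8.15 log2 CPM in *Gadlor*-KO samples 1, 2 and 3, against 5.49, 5.84 and 5.58 in WT samples 1, 2 and 6. *Lamb1* had 5.62, 7.45 and 6.90 in *Gadlor*-KO and 4.23, 4.82 and 4.0 in WT, and *Lama4* had 5.78, 7.03 and 6.60 in *Gadlor*-KO and 4.04, 4.60 and 3.33 in WT. In all 3 genes *Gadlor*-KO sample 1 was the lowest of its group and still above every WT sample. The log2 fold changes were 2.10 ± 0.54 (adjusted p = 0.0205), 2.31 ± 0.52 (adjusted p = 0.0141) and 2.48 ± 0.47 (adjusted p = 0.0083). *Lama3* lay at 2.52 to 2.80 log2 CPM in *Gadlor*-KO and -0.60 to 0.47 in WT CMs (log2 fold change 2.61 ± 0.42, adjusted p = 0.00628).

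*Lama5* went the other way. It had 4.64, 5.32 and 5.78 log2 CPM in *Gadlor*-KO samples 1, 2 and 3, against 6.58, 6.04 and 6.81 in WT samples 1, 2 and 6 (log2 fold change -1.23 ± 0.41, adjusted p = 0.0482). The genotypes did not overlap, and the call did not hold when mitochondrially encoded genes were left out of the totals, which gave -0.49. *Lamb3* averaged 2.98 ± 0.86 in *Gadlor*-KO and 4.16 ± 0.20 in WT CMs and was not called (adjusted p = 0.08).

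*Itga7* was lower in *Gadlor*-KO CMs, and so was melusin. *Itga7* (chromosome 10, 128933818 to 128958282, mm10) had 2.65, 4.68 and 5.06 log2 CPM in *Gadlor*-KO samples 1, 2 and 3, against 6.28, 6.34 and 7.14 in WT samples 1, 2 and 6. Its log2 fold change was -2.46 ± 0.66, 5.49-fold lower (adjusted p = 0.0254), and -1.72 (adjusted p = 0.0615) without the mitochondrially encoded genes in the totals. *Itgb1bp2* (chromosome X, 101449088 to 101453541), which encodes melusin, had 1.37, 0.73 and 4.22 in *Gadlor*-KO and 6.28, 6.30 and 7.0 in WT, 21.4-fold lower with a log2 fold change of -4.42 ± 0.88 (adjusted p = 0.00961). Within *Gadlor*-KO, melusin was highest in sample 3, which also had the highest cardiomyocyte markers. All 15 cardiomyocyte markers were called lower, with a median log2 fold change of -4.32, so a lower level per CM and a smaller share of CM RNA cannot be told apart.

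*Itgb1bp1*, a tail-binding protein of the same beta chain found in most cells, had 2.57, 2.89 and 2.90 log2 CPM in *Gadlor*-KO and 3.41, 3.75 and 4.12 in WT CMs (log2 fold change -0.97 ± 0.31, adjusted p = 0.0407). This call was lost without mitochondrially encoded genes in the totals (log2 fold change -0.24, adjusted p = 0.443) and with centring on the median (-1.12, adjusted p = 0.0648). *Itgad*, the alphaD chain of leukocytes, had -1.58, -2.42 and -1.18 in *Gadlor*-KO and 1.41, 1.52 and 1.92 in WT (log2 fold change -3.34 ± 0.50, adjusted p = 0.00587). Its exons share 70 bp with *Cox6a2* on the other strand, a muscle subunit of cytochrome oxidase that had 5.24, 5.02 and 8.26 log2 CPM in *Gadlor*-KO and 10.58, 10.09 and 11.20 in WT CMs. The libraries kept strand information, but whether the counting used it is not given in the sources used here, so it is not known whether reads of both genes were kept apart. The exons of *Itgb1bp1* also overlap *Asap2* and *Cpsf3* on the other strand. The 6 lower calls were sensitive to single libraries: 2 remained called without *Gadlor*-KO sample 2, WT sample 1 or WT sample 2, and 3 without *Gadlor*-KO sample 1, and *Itgad* and *Itgb1bp2* were the members called in every such fit.

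The largest rises in CMs were those of leukocyte integrins. *Itgb2* (chromosome 10, 77530252 to 77565708) had 6.12, 2.98 and 2.76 log2 CPM in *Gadlor*-KO samples 1, 2 and 3, against -2.06, -0.76 and 0.20 in WT samples 1, 2 and 6. *Itgam* (chromosome 7, 128062640 to 128118491) had 6.58, 3.17 and 2.82 in *Gadlor*-KO and -1.48, 0.10 and -0.40 in WT. *Itga4* (chromosome 2, 79255426 to 79333123) had 4.16, 1.22 and 1.34 in *Gadlor*-KO and -2.06, -1.61 and -2.24 in WT. Every *Gadlor*-KO sample lay above every WT sample, and sample 1 lay far above samples 2 and 3 in all 3 genes. The log2 fold changes were 4.82 ± 1.02 (adjusted p = 0.0115), 4.79 ± 1.04 (adjusted p = 0.0122) and 4.20 ± 0.84 (adjusted p = 0.00982), and without *Gadlor*-KO sample 1 they were 3.74, 3.59 and 3.25, each still called. With 5 CPM added to every value, the *Itga4* call was lost. *Itgal* had 4.0, 0.22 and 0.37 in *Gadlor*-KO and -0.49, -1.86 and -1.47 in WT, and was not called (adjusted p = 0.077).

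Macrophage markers moved with these chains: 13 of 14 were called higher and 1 lower, with a mean level of 5.50, 4.60 and 4.70 log2 CPM in *Gadlor*-KO samples 1, 2 and 3 and 0.29, 1.73 and 0.95 in WT samples 1, 2 and 6. Both other leukocyte markers measured in CMs were called higher. The part of leukocyte RNA in the integrin differences was not tested. *Itgam* shares 3450 bp of exons with the predicted gene *Gm49368* on the same strand. How reads of this shared part were assigned is not known, and their part in the *Itgam* call was not tested. *Itga4* shares exonic sequence with *Cerkl* on the other strand, where separation depends on a stranded count.

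The upstream sequences of *Itgam* and *Itga4*, 2 leukocyte chains that rose together in *Gadlor*-KO CMs, are shown because the *Itgam* promoter is a textbook target of PU.1, a transcription factor of myeloid cells. Each line gives the 250 bases before the annotated start, at chr7:128062390-128062639 and chr2:79255176-79255425, plus strand in both (RefSeq, GRCm38.p6). Capitals mark the PU.1 core letters GAGGAA or their reverse complement TTCCTC.
Itgam: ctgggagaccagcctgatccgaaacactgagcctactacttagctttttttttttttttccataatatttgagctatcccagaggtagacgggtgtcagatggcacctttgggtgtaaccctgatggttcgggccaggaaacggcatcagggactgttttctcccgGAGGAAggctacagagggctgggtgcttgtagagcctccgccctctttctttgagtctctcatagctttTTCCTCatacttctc
Itga4: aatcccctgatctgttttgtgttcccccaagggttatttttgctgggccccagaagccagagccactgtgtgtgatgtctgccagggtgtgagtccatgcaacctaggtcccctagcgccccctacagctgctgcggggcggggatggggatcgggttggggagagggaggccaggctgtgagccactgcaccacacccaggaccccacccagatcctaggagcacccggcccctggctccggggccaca
The *Itgam* window held 2 matches, the first starting 84 bases before the start site, and the *Itga4* window 0. Over all 32851 windows of this length, 23.3% held a match on either strand, as did 12 of the 25 members with a window. A match is only a run of letters, and its absence from this window says nothing of the factor.

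Further chains rose beside these. *Itgb3* had 3.64, 2.73 and 2.61 log2 CPM in *Gadlor*-KO CMs and -1.07, -0.76 and 0.27 in WT CMs (log2 fold change 3.52 ± 0.51, adjusted p = 0.00578). *Itgb4*, the hemidesmosome chain that binds laminin with alpha6, had 3.76, 2.56 and 2.17 in *Gadlor*-KO and -1.26, -0.89 and -0.22 in WT (log2 fold change 3.62 ± 0.55, adjusted p = 0.00595). *Itgb8*, an alphav partner that activates latent TGF-beta, had 2.40, 1.06 and 0.66 in *Gadlor*-KO and -2.46, -1.86 and -3.97 in WT (log2 fold change 4.14 ± 0.75, adjusted p = 0.00759). Its value of -3.97 in WT sample 6 is the lowest among all CM genes and samples, a floor set by the prior count. The size of the *Itgb8* fold change therefore depends in part on that floor. None of these 3 overlapped between genotypes, and *Gadlor*-KO sample 1 was highest in each. *Itga8* had 0.50, 2.22 and 1.87 in *Gadlor*-KO and -0.75, -0.63 and -2.62 in WT (adjusted p = 0.0213), with sample 1 lowest this time. *Itgbl1* had 2.54, 4.16 and 4.09 in *Gadlor*-KO and 1.16, 1.95 and 0.63 in WT (adjusted p = 0.0178). *Itga10*, a collagen receptor chain, lay at 1.37 to 1.87 in *Gadlor*-KO and -0.52 to -0.40 in WT (log2 fold change 2.14 ± 0.38, adjusted p = 0.00727). It shares 1739 bp of exons with *Gm42957* on the same strand, which had 2.57, 2.63 and 2.68 in *Gadlor*-KO and 3.13, 2.85 and 3.71 in WT CMs. How shared reads were assigned is not known, and their part in the *Itga10* call was not tested.

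WT sample 6 shaped the results for *Itga6*, *Itgb1* and *Itgav*. *Itga6* had 5.05, 6.06 and 5.77 log2 CPM in *Gadlor*-KO samples 1, 2 and 3, against 2.31, 3.67 and -0.72 in WT samples 1, 2 and 6 (log2 fold change 3.87 ± 1.05, adjusted p = 0.026), and 2.64 without WT sample 6. *Itgb1* had 6.58, 7.25 and 6.96 in *Gadlor*-KO and 6.95, 7.01 and 3.30 in WT, so that only WT sample 6 stood apart. Its log2 fold change was 1.18 ± 1.0 (adjusted p = 0.388) with that sample and -0.05 (adjusted p = 0.914) without it. *Itgav* had 3.94, 3.70 and 3.58 in *Gadlor*-KO and 2.10, 2.30 and -1.12 in WT (log2 fold change 2.65 ± 0.90, adjusted p = 0.0547), and it was called at 1.54 (adjusted p = 0.00488) without WT sample 6.

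Of the 14 higher calls, 10 held as each sample was left out in turn. The other 4 did not: *Lamc1* and *Itgbl1* were lost without *Gadlor*-KO sample 2, *Gadlor*-KO sample 3 or WT sample 1, *Itga8* without *Gadlor*-KO sample 2 or 3, and *Itga6* without any single *Gadlor*-KO sample or WT sample 1. With all samples but 5 CPM added to every value, *Itga4*, *Itga8* and *Itga10* were not called.

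**Figure D4:**
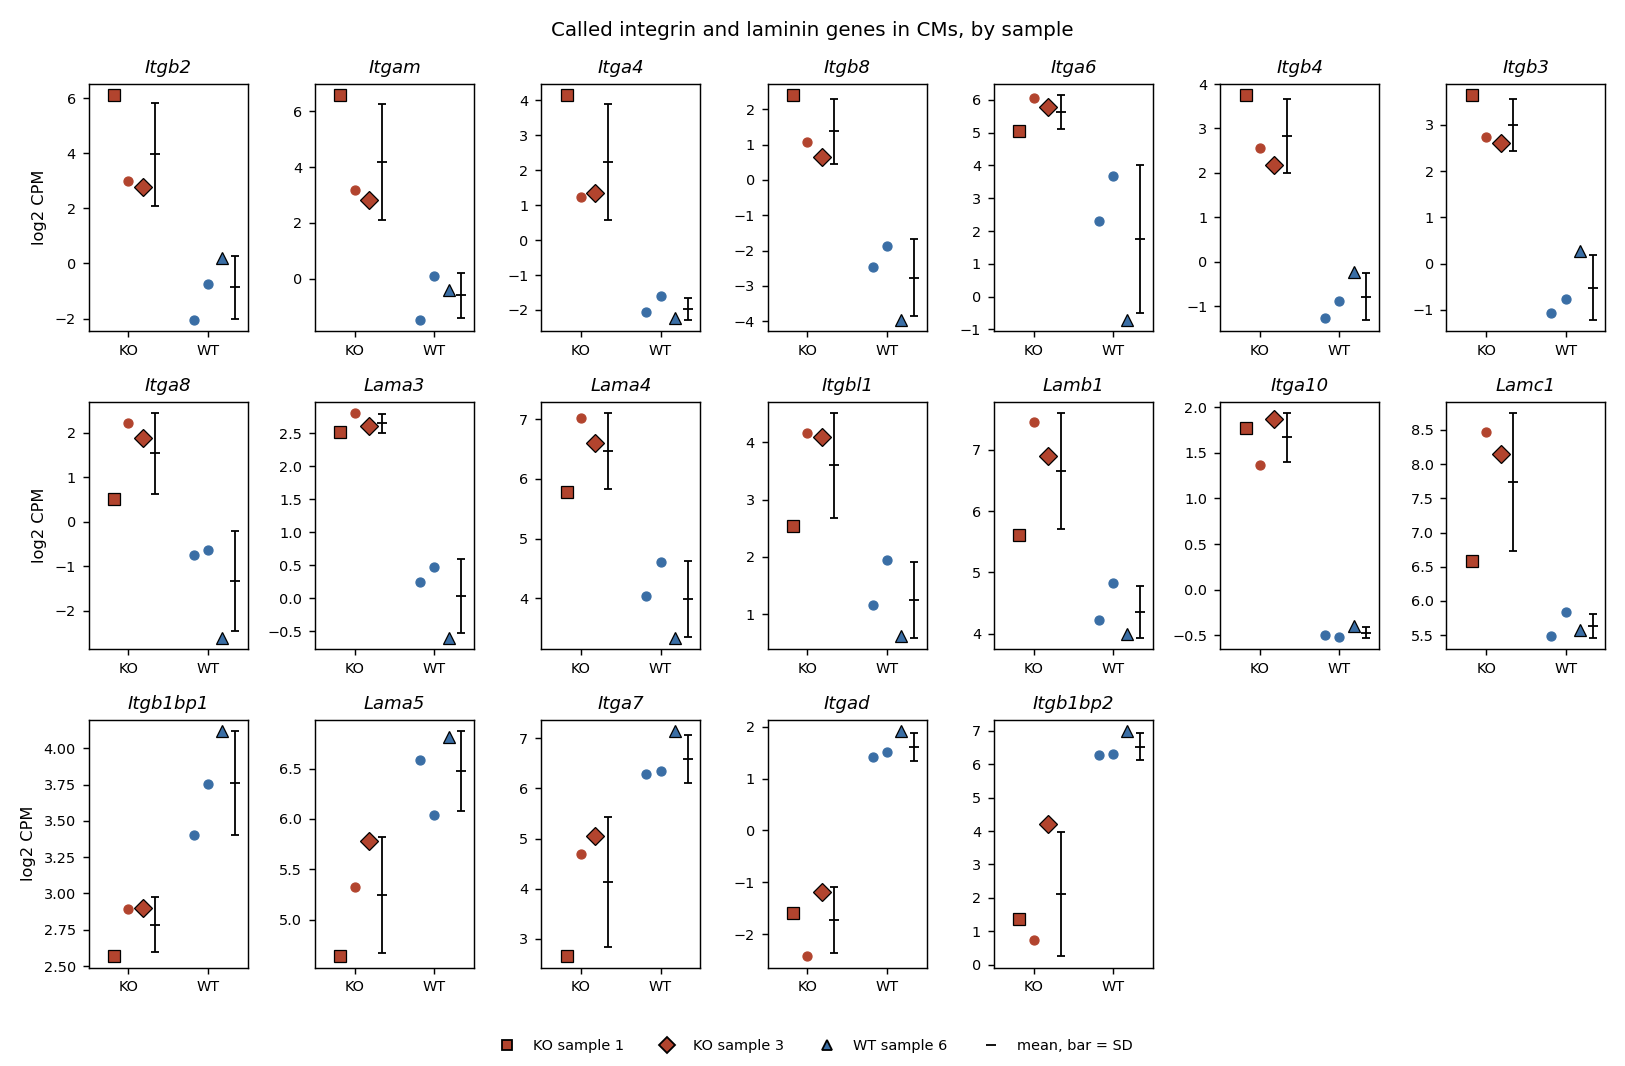
Log2 CPM of 19 of the 20 called members in each CM sample, *Gadlor*-KO left and WT right in every panel; bars give the mean and SD (n = 3 each), and each panel has its own scale, which does not start at 0. *Gadlor*-KO sample 1 (square) is highest for *Itgb2*, *Itgam*, *Itga4*, *Itgb8*, *Itgb4* and *Itgb3*, and sample 3 (diamond) is the highest *Gadlor*-KO sample for *Itgb1bp2* and *Itga7*; WT sample 6 is drawn as a triangle.

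Members of CMs with at least 10 CPM that were not called included the fibronectin receptor chain *Itga5*, which averaged 5.70 ± 0.75 log2 CPM in *Gadlor*-KO and 5.55 ± 0.58 in WT (n = 3 each). *Lamb2* averaged 6.73 ± 0.34 in *Gadlor*-KO and 7.42 ± 0.45 in WT, and *Lama2* 5.73 ± 1.52 in *Gadlor*-KO and 4.34 ± 1.16 in WT. *Itga9* averaged 4.67 in *Gadlor*-KO and 5.55 in WT (adjusted p = 0.106), *Itga1* 5.06 in *Gadlor*-KO and 3.96 in WT (adjusted p = 0.0942), *Itgb5* 5.40 in *Gadlor*-KO and 4.86 in WT, and *Itga3* 3.49 in *Gadlor*-KO and 3.22 in WT. *Itgb3bp*, which was below 10 CPM, averaged 0.38 in *Gadlor*-KO and 0.77 in WT.

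All 14 members that rose in *Gadlor*-KO CMs had a higher mean level in both WT ECs and WT FBs than in WT CMs, and of the 5 lower members measured in ECs or FBs, 2 had a higher level in at least 1 of them. In the same samples 15 of 15 endothelial and 13 of 14 fibroblast markers were called higher. Their part in the 14 higher calls was not tested, and these levels come from tables normalized separately.

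The genotype effect in CMs was set against that in ECs by testing the difference of the 2 log2 fold changes. Of 31 members measured in both, 17 differed at an adjusted p under 0.05, beside 40.7% of all shared genes. The CM effect was the more positive for 14 of them and the more negative for 3, *Itgb1bp2*, *Itga7* and *Lamb3*. *Lama3* differed with 2.61 in CMs and -0.57 in ECs (difference 3.19 ± 0.42, adjusted p = 0.0024), and *Lama4* with 2.48 in CMs and 0.00 in ECs (difference 2.48 ± 0.48). For *Lama5*, which was lower in both, the difference was -0.82 ± 0.41 and did not pass the test. Without *Gadlor*-KO CM sample 2, 11 members differed.

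Genes that work with integrins and laminins were counted on 5 lists. In ECs, where 2.08% of all genes were called higher and 5.31% lower, 1 of 16 basement membrane partners was called higher, *Tinagl1*, which encodes a secreted matrix glycoprotein, with 9.36 ± 0.27 log2 CPM in *Gadlor*-KO and 8.69 ± 0.06 in WT (adjusted p = 0.00379). Among 17 integrin ligands outside the laminins, 2 were called lower in *Gadlor*-KO ECs: *Icam1*, the endothelial ligand of beta2 integrins, with 6.06 ± 0.13 in *Gadlor*-KO and 7.82 ± 0.12 in WT (adjusted p = 3.79e-06), and *Thbs1*, which encodes thrombospondin, with 5.88 ± 0.46 in *Gadlor*-KO and 7.04 ± 0.08 in WT (adjusted p = 0.00528). Of 29 focal adhesion adaptors and kinases, 0 were called with the fold threshold, and 7 were higher and 3 lower without it (10% and 11.3% of all genes), among them *Zyx* (zyxin, log2 fold change 0.47), *Vcl* (vinculin, 0.39) and *Ilk* (integrin-linked kinase, 0.35), each higher in *Gadlor*-KO ECs. Of 15 other laminin receptors and dystrophin complex genes, 0 were called. Of 10 membrane proteins associated with integrins, *Plaur*, the urokinase receptor, was called lower (log2 fold change -0.68, adjusted p = 0.00855). *Mcam*, which encodes the CD146 used to capture ECs, averaged 8.14 ± 0.09 in *Gadlor*-KO and 7.62 ± 0.11 in WT ECs (adjusted p = 0.00113), under the fold threshold. In FBs, 0 genes of any of the 5 lists were called.

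In CMs, where 21.3% of all genes were called higher and 19.6% lower, 12 of 15 basement membrane partners were called higher and 0 lower, with a median log2 fold change of 2.81, and 14 of 16 ligands were higher and 0 lower, with a median of 3.23. *Nid1* (nidogen, which ties laminin to collagen IV) averaged 7.60 ± 1.10 in *Gadlor*-KO and 4.39 ± 0.70 in WT CMs, and *Vcam1*, the ligand of alpha4, 3.27 ± 0.22 in *Gadlor*-KO and -0.06 ± 0.96 in WT. Of 29 adaptors and kinases, 12 were higher, among them the filamin *Flna*, and 2 lower, *Flnc* and *Tln2*, the forms of striated muscle. Of 16 other laminin receptors and dystrophin complex genes, 2 were called higher and 6 lower, with a median of -1.34: *Sgca*, which encodes a muscle sarcoglycan, had a log2 fold change of -4.55 ± 0.87 (adjusted p = 0.00883), whereas *Sgce*, the sarcoglycan of other tissues, had 3.27 ± 0.45 (adjusted p = 0.00555). Of the 10 associated membrane proteins, 4 were higher and 1, *Bsg* (basigin), lower.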

How the data were processed

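The authors deposited 1 table per cell type, holding log2 CPM per transcript and sample on an edgeR scale with a small prior count. The study's methods name bowtie2, biomaRt and edgeR, the submitters' processing notes Bowtie2, DESeq2 and mm10, and versions and the counting tool are not given in the sources used here. Columns of the authors' comparison (log2 fold change, p-value, FDR, likelihood ratio score) were not used.

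For every gene the most abundant transcript on average was taken, since the transcripts of a gene mostly had the same values (9 of 14 such members in ECs differed by under 0.03 in every sample). Transcripts without a name (0.44%, 0.419% and 0.414%) were left out. Library sizes, estimated from the steps of the lowest values (whole reads within 0.1), were 40.1 to 55.4 M reads in *Gadlor*-KO and 45.1 to 54.8 M in WT ECs, 22.9 to 33.8 M in *Gadlor*-KO and 15.0 to 59.8 M in WT FBs, and 10.6 to 16.3 M in *Gadlor*-KO and 17.0 to 20.2 M in WT CMs, so low genes are least certain in CMs.

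Genotypes were compared within each table with limma 3.58.1 under R 4.3.3 (variance trend, and robust moderation through statmod 1.5.0), adjusted after Benjamini and Hochberg over all genes and called at 0.05 with a fold above 1.5. The CM minus EC difference used the combined standard errors with Welch-Satterthwaite degrees of freedom. Lengths and coordinates came from GENCODE vM21 (mm10). Scripts were tested on simulated data. Alternatives changed the pseudocount (1 or 5 CPM), the low-value filter (1 CPM), the scaling, the summary over transcripts, a Y-linked covariate, and left out single samples. The name rule for members, the gene lists and the rules for named genes were set with earlier results of these data known. Named genes were called members by size, in FBs the 10 with the smallest p, and others from 10 CPM. Values of 1 member, which the counts include, are not reported here.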

Additional observations from a re-analysis of the deposited data

Results flagged for a closer look

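In ECs, 72 groups of 4 values (36 members in each genotype) were examined for a sample far from the other 3, which chance gives in about 1 of 20 groups, and 5 were found. *Itga11* had -0.0078 log2 CPM in sample KO-131, against 0.77 to 0.88 in the other *Gadlor*-KO samples. *Itga6* had 7.80 in sample KO-105, against 7.49 to 7.53, and *Lamb2* 7.86 in the same sample, against 7.98 in the other 3. *Itga9* had 5.53 and *Lamc1* 8.32 in sample WT-34, against 5.69 to 5.70 and 8.82 to 8.88 in the other WT samples.

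The genotype effect differed between CMs and ECs for 17 members by the test of the difference, which is given here as CM minus EC on the log2 scale. The largest positive differences were those of leukocyte chains, *Itgam* by 5.58, *Itgb2* by 5.54 and *Itga4* by 4.61. Chains that partner alphav or bind laminin followed, *Itgb8* with 4.23 (WT CM sample 6 lay at the floor), *Itgb4* with 3.87, *Itga6* with 3.77 and *Itgb3* with 3.43. Laminin chains differed by 3.19 for *Lama3*, 2.48 for *Lama4*, 2.47 for *Lamb1* and 2.01 for *Lamc1*, and *Itga8*, *Itga10* and *Itgbl1* by 3.15, 2.47 and 2.47. Differences were negative for *Itgb1bp2* (-4.80), *Itga7* (-2.35) and *Lamb3* (-1.45). Cardiomyocyte markers were lower and markers of other cells higher in the *Gadlor*-KO CM samples, and their part in these differences was not tested.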

How the results depend on the processing

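No called member changed direction in any alternative. In ECs the count of lower members was 0 with 1 or 5 CPM added, 5 without a fold threshold and 2 with the mean over transcripts, which added *Lama2*. As single samples were left out, it ran between 0 and 2 and the count of higher members between 0 and 1; with only samples KO-105 and KO-108, 1 was higher (*Itgb3bp*). In FBs, leaving out single samples gave 0 to 4 higher and 0 to 5 lower members, and every count above 0 came from leaving out sample WT-260. In CMs the 6 lower calls fell to 2 without mitochondrially encoded genes in the totals and to 2 with a Y-linked covariate, and ranged from 2 to 5 as single samples were left out, while the 14 higher calls ranged from 10 to 15. With *Gadlor*-KO sample 3 alone both counts were 0, with 1 sample assumed to vary like the others. The count of members that differed between CMs and ECs ranged from 11 to 18 as single samples were left out. *Gadlor*-KO and WT CMs share the numbers 1 and 2, but same-numbered samples hardly deviated together (correlation 0.05 and 0.08). A fit with these numbers as a block kept only samples 1 and 2 of each genotype, without *Gadlor*-KO sample 3 and WT sample 6. It gave 14 higher and 8 lower calls, and effects of the block and of the missing samples cannot be told apart. *Itgb2* (log2 fold change 5.96, adjusted p = 0.0521) and *Itgam* (5.57, 0.131) were then not called, *Itgal* (3.29, 0.00978) and *Itgav* (1.62, 0.00281) were called higher, and *Itga9* (-1.08, 0.0198) and *Lamb3* (-1.52, 0.0481) lower. CM libraries are the smallest, and values below 0 log2 CPM rest on few reads. The causes of these changes were not tested.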
